A study of Mus musculus with 6 samples.

Results

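Glycolysis and the response to hypoxia were followed in FAPs (fibro-adipogenic progenitors), mesenchymal cells that lie between the fibres of skeletal muscle and carry the receptor Pdgfra. The set held 34 genes chosen by symbol from the 54100 rows of a count table. It comprised 17 enzymes from hexokinase to lactate dehydrogenase, 4 transporters of glucose or lactate, 5 genes that steer pyruvate, 7 targets of hypoxia-inducible factor (HIF) and the HIF subunit gene Hif1a. All 34 symbols were found, and of 2 rows named Aldoa the one with more counts was used. Per the labels, Pdgfra+ cells were sorted from the plantaris, a calf muscle, of C57BL/6 mice, with 1000 cells in each tube, after a sham treatment (3 libraries) or after overload (3 libraries). All mice were of this 1 strain, and no transgene or drug is named. How the load was applied, for how long, and the age and sex of the mice are details not given in the sources used here. Whether libraries came from separate animals is not labelled either, so each p-value reflects only how much the 3 libraries of a group vary, and that variation may be technical.

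Glycolysis splits glucose into pyruvate in the cytosol, and lactate dehydrogenase can then turn pyruvate into lactate, which leaves the cell. When oxygen is scarce, the prolyl hydroxylases that mark HIF-1 alpha for destruction slow down, and HIF-1 induces glucose transporters, glycolytic enzymes and kinases that close the mitochondrial entry of pyruvate. HIF-1 alpha is controlled largely at the protein level, which messenger RNA does not show, and many glycolytic enzymes are themselves HIF targets.

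HIF-1 binds the letters ACGTG or GCGTG, so the stretch before the transcription start was searched for these 5 bases on both strands. RefSeq promoter sequences on GRCm38.p6 were at hand for 32 of the 34 members, and the 250 bases before each start were read. At least 1 match lay before a start of 29 of these 32 genes (90.6%), against 64.7% of the tested genes with a promoter sequence and 41.5% of all genes. ACGTG alone, in either orientation, lay before 17 of the 32 members (53.1%) and 26.7% of the tested genes. Among members called higher in overload 8 of 9 had a match of either kind, and among members tested but not called 8 of 9 had one. For ACGTG alone these were 7 of 9 (77.8%) and 4 of 9 (44.4%), a description of few genes with no test. A match describes the letters in the window and is not a binding site. Where a gene had several starts, the window with most matches is shown. The first 4 are shown because these genes rose with matches before a start. Egln1 is shown because it had matches and was not called, and Gpi1 because it rose with no match in the window. Matches are in capitals, and each sequence reads 5′ to 3′ on the strand of the gene.
Ldha promoter, chr7:46845554-46845803 (+ strand): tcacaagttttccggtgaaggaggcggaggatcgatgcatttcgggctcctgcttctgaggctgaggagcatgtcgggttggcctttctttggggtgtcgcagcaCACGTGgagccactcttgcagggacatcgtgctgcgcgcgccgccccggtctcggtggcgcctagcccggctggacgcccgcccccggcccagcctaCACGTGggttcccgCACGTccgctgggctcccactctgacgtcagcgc
Pgk1 promoter, chrX:106186850-106187099 (+ strand): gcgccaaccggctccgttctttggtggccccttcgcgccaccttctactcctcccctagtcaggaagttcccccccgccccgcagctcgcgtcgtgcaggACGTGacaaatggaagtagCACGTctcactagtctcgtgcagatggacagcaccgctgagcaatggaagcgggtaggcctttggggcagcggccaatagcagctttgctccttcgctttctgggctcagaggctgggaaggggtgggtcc
Slc2a1 promoter, chr4:119108495-119108744 (+ strand): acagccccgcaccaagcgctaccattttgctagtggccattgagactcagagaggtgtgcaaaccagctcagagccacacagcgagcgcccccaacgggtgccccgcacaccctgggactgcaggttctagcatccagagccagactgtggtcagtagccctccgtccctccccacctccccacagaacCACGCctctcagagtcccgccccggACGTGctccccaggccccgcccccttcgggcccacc
Hilpda promoter, chr6:29272376-29272625 (+ strand): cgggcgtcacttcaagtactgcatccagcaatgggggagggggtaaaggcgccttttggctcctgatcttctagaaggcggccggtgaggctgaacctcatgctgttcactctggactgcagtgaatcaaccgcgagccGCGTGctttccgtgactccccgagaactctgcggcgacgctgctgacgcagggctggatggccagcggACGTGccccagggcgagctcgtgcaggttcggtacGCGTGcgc
Egln1 promoter, chr8:124949255-124949504 (- strand): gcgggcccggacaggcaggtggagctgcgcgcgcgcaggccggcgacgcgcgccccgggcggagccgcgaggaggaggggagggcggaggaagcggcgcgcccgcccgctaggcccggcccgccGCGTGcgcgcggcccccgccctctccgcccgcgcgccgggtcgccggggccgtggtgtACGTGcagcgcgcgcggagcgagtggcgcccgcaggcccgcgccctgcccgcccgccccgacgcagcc
Gpi1 promoter, chr7:34230337-34230586 (- strand): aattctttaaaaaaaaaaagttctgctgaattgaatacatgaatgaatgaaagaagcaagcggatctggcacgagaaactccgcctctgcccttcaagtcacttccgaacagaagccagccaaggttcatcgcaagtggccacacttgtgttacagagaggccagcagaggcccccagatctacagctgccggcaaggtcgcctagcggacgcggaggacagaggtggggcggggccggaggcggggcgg
Ldha had 5 matches, of which 2 pairs overlap because CACGTG reads the same on both strands. Hilpda had 3 matches, Pgk1, Slc2a1 and Egln1 had 2 each, and of those shown the nearest to a start was in Hilpda, 8 bases before it. Hilpda has another start, whose window (chr6:29272238-29272487) held 0 matches. The window shown reaches past that start into the gene, and all 3 Hilpda matches lie in that part, after the other start. The window of the other Ldha start held 1 match.

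Total counts were 500402 to 754456 in sham and 850857 to 1124210 in overloaded libraries, so overloaded libraries were deeper. Levels are given as CPM, counts scaled to 1000000 over the tested genes, with library sizes adjusted by TMM (the trimmed mean of M-values), so that 1 count was worth 0.962 to 2.07 CPM. Of 7207 genes with enough counts to test, 29.3% were called by edgeR's quasi-likelihood test at a Benjamini-Hochberg adjusted p under 0.05, 15% higher and 14.3% lower in overload. Receptor genes of the nose and vomeronasal organ, taken as a measure of background reads, made up 1420, 1785 and 778 of each 1000000 counts in the sham and 306, 1080 and 229.6 in the overloaded libraries. All 12 FAP markers were detected, Pdgfra among them, with 3 of them called higher and 6 lower. They summed to 61025 to 78145 CPM in sham and 78357 to 91652 CPM in overloaded libraries. Col3a1, which was called higher, gave 39.2% of this sum. Pdgfra itself was at 857 ± 143 CPM in sham and 594 ± 172 CPM in overload and was not called (edgeR adjusted p = 0.0624). Markers of muscle fibres, which are rich in glycolytic enzymes, summed to 44.4 to 83.0 CPM in sham and 30.8 to 35.9 CPM in overloaded libraries. Of the 14 fibre markers 12 had counts, most of them of Tnnt3 (62.9% of the sum), and Pgam2, the muscle phosphoglycerate mutase, had none. Leukocyte markers summed to 17.2 to 29.0 and 1.92 to 20.1 CPM, with Lyz2, Adgre1, Tyrobp and S100a9 at 0. Endothelial markers summed to 127 to 222 and 33.5 to 80.3 CPM, most of it Tek. Red cell markers summed to 1.43 to 131 and 2.51 to 27.8 CPM, satellite cell markers to 21.5 to 47.7 and 10.4 to 30.1 CPM, tenocyte markers to 48.4 to 57.3 and 55.2 to 105 CPM, and glial markers to 2.86 to 16.1 and 0 to 12.5 CPM. The 8 pericyte and smooth muscle markers summed to 112 to 186 CPM in sham and 358 to 543 CPM in overload, and without Acta2, which myofibroblasts also express, to 99.6 to 176 and 98.3 to 148 CPM. The part of other cells in the results was not tested.

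Of the 34 members 20 had enough counts to test, and 9 rose and 1 fell with overload in edgeR's test, beside the 29.3% of all tested genes that were called. In 10 tested members every overloaded library lay above every sham library, and in 2 every one lay below. The same held for 21.2% and 20.3% of all tested genes. The genes that rose were Hif1a, the glucose transporter gene Slc2a1, the enzyme genes Gpi1, Aldoa, Gapdh, Pgk1, Pkm and Ldha, and the HIF target Hilpda. The gene that fell was Pdk4, a kinase that blocks the entry of pyruvate into the mitochondrial citric acid cycle. The early steps named by Hk1, Hk2 and Pfkp were not called, nor were the HIF targets Ndrg1 and Egln1. The median log2 fold change of the 20 members was 0.52, beside -0.02 over all genes tested. Gapdh and Pgk1 passed the count filter through the overloaded libraries alone and Pdk4 through the sham libraries alone, so these 3 had to differ to be tested.

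**Figure D1:**
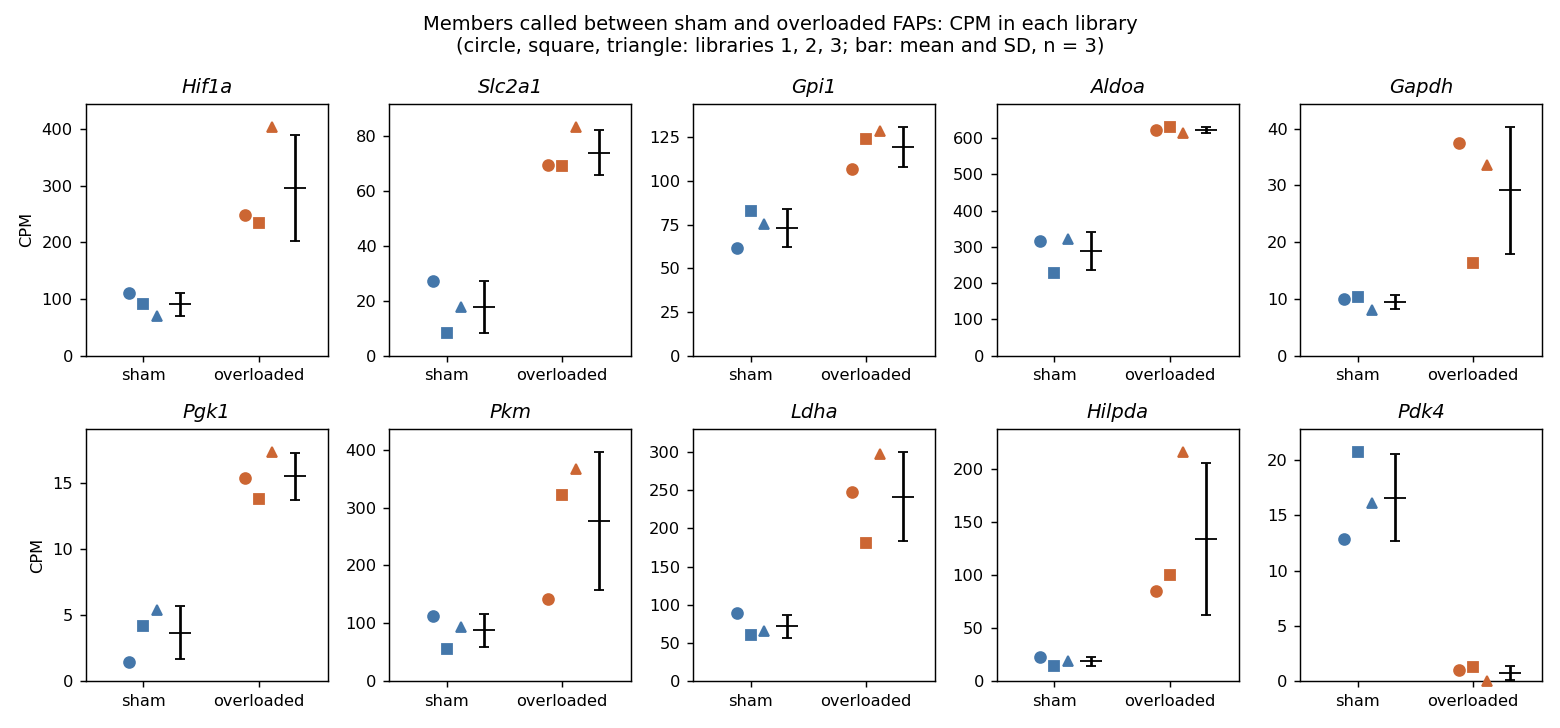
CPM of the 10 members called between sham (blue) and overloaded (orange) FAPs in each library, on linear axes from 0, with the mean and SD of 3 libraries beside the points. In each panel the groups do not overlap, and Pdk4 is the panel in which the overloaded libraries lie below.

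Hif1a encodes HIF-1 alpha, the oxygen-regulated subunit of HIF-1 (chromosome 12, 73901375 to 73947530 on GRCm38). Its level was 110.3, 91.3 and 70.0 CPM in sham libraries 1 to 3 and 249, 235 and 405 CPM in overloaded libraries 1 to 3. All overloaded libraries stood above all sham libraries, and overloaded library 3 was highest. The rise from 90.5 ± 20.2 to 296 ± 94.4 CPM (mean ± SD, n = 3 per group) had an edgeR adjusted p of 4.47e-06 (log2 fold change 1.71, standard error, SE, 0.25). Exons of Hif1a overlap those of another annotated gene on each strand, and exons of Slc2a1, Gpi1, Aldoa, Gapdh and Pkm overlap those of 1 other gene each. Without a stated strand setting for the counting, reads of such pairs cannot be told apart. In bulk libraries fewer cells that express a gene and less RNA per cell cannot be told apart either.

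Slc2a1 encodes GLUT1, the glucose transporter found in most cell types (chromosome 4, 119108711 to 119137983). Its sham libraries stood at 27.2, 8.30 and 17.5 CPM and its overloaded libraries at 69.3, 69.0 and 83.3 CPM. The groups were far apart, and the rise from 17.7 ± 9.46 to 73.8 ± 8.18 CPM had an edgeR adjusted p of 5.08e-05 (log2 fold change 2.0, SE 0.35). Slc2a3, which encodes the high-affinity glucose transporter GLUT3, was counted 12, 2 and 9 times in sham and 10, 13 and 5 times in overload, which overlaps and fell short of the filter. Slc16a1 encodes the lactate and pyruvate carrier MCT1 (chromosome 3, 104638668 to 104658462) and was at 136, 174 and 144 CPM in sham and 177, 251 and 246 CPM in overloaded libraries. Each overloaded library was above each sham library, but the log2 fold change of 0.57 (SE 0.22) missed the threshold (edgeR adjusted p = 0.0505). It passed in 4 of 15 alternative settings, with an adjusted p by edgeR, DESeq2 or limma of 0.0175 to 0.136 over all of them. Slc16a3 encodes MCT4, a carrier that favours lactate export. Its counts of 3, 0 and 1 in sham and 9, 6 and 14 in overload did not overlap in CPM but fell short of the filter.

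The enzymes are given in the order of the pathway, with 11 of 17 tested, 6 higher, 0 lower and 5 not called by edgeR, beside 15% higher and 14.3% lower of all tested genes. Of the 6, Gapdh and Pgk1 passed the filter through the overloaded libraries alone. None was lower at an unadjusted p under 0.05 in edgeR or by DESeq2 or limma. Hexokinase, which traps glucose in the cell, was represented by Hk1 and Hk2, and neither was called. Hk2, the inducible form (chromosome 6, 82725025 to 82774454), was at 253, 255 and 382 CPM in sham and 331, 339.8 and 444 CPM in overloaded libraries. These ranges overlap, and the log2 fold change was 0.32 with a 95% interval of -0.12 to 0.76 (edgeR adjusted p = 0.285). Hk1, the form of most tissues, lay between 35.8 and 48.4 CPM in sham and between 38.2 and 47.7 CPM in overloaded libraries, with an interval of -0.67 to 0.59.

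Gpi1, the isomerase of the second step (chromosome 7, 34201330 to 34230336), was at 61.6, 83.0 and 75.3 CPM in sham and 107, 124 and 128 CPM in overloaded libraries. The groups did not overlap, and the log2 fold change was 0.71 (SE 0.24, edgeR adjusted p = 0.0248). The call was lost without sham library 1, sham library 3 or overloaded library 3 (edgeR adjusted p = 0.0806, 0.0566 and 0.0681). Phosphofructokinase commits sugar to glycolysis, and its platelet-type gene Pfkp (chromosome 13, 6579768 to 6648777) was at 120.3, 145 and 147 CPM in sham and 92.3, 104 and 102 CPM in overloaded libraries. Here each overloaded library lay below each sham library, but the log2 fold change of -0.47 (SE 0.23) was not called (edgeR adjusted p = 0.13). The liver and muscle forms were too low to test, Pfkl with 15 counts in sham and 24 in overload and Pfkm with 18 and 16. Pfkfb3, which makes the activator of phosphofructokinase, was counted 18, 3 and 15 times in sham and 15, 8 and 18 times in overload, with a 95% interval of -1.23 to 0.71 for its log2 fold change. Pfkfb4, a related enzyme, had 10 and 12 counts in all.

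Aldoa encodes aldolase A, which cleaves the sugar into triose phosphates (chromosome 7, 126795234 to 126800751). It stood at 315, 228 and 322 CPM in sham and at 622, 632 and 615 CPM in overloaded libraries. The overloaded libraries lay close together, and the rise from 288 ± 52.2 to 623 ± 8.36 CPM had an edgeR adjusted p of 0.000108 (log2 fold change 1.11, SE 0.20). Tpi1, the triose phosphate isomerase, was at 17.2, 45.6 and 28.3 CPM in sham and 26.9, 41.4 and 54.4 CPM in overload, overlapping and not called (log2 fold change 0.46, interval -0.28 to 1.21).

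Gapdh encodes the dehydrogenase of the sixth step (chromosome 6, 125161715 to 125166467). It was counted at 10.02, 10.4 and 8.07 CPM in sham and 37.5, 16.3 and 33.5 CPM in overloaded libraries. The groups did not overlap (log2 fold change 1.63, SE 0.46, edgeR adjusted p = 0.00673). These are few reads, 18 in sham and 81 in overload. The last 500 bases of its transcripts matched 93 other genes of the table over at least 200 bases at 95% identity or more, and 89 of these were pseudogenes. The 93 copies held 103 counts in sham and 375 in overload, more than Gapdh itself in each group, so its level is uncertain. With the copies added, the libraries stood at 60.1, 72.6 and 59.2 CPM in sham and at 153, 181 and 177 CPM in overload, again with no overlap. Without overloaded library 1 Gapdh alone was not called (edgeR adjusted p = 0.0525).

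Pgk1, phosphoglycerate kinase (chromosome X, 106187100 to 106203699), was at 1.43, 4.15 and 5.38 CPM in sham and 15.4, 13.8 and 17.4 CPM in overload, from 7 and 42 counts. The groups did not overlap (log2 fold change 2.05, SE 0.63, edgeR adjusted p = 0.0137). Its call was lost without sham library 1 (edgeR adjusted p = 0.0727), and it was too low to test without overloaded library 1 or 3. Pgam1, the mutase of the next step, was counted 7, 2 and 0 times in sham and 30, 10 and 24 times in overload, and Eno1, enolase 1, 4, 3 and 4 times against 12, 9 and 17. Both did not overlap in CPM but fell short of the count filter, and without that filter Pgam1 was called (edgeR adjusted p = 0.00169) and Eno1 was not (0.273).

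Pkm encodes the muscle-type pyruvate kinases M1 and M2, splice forms that a count per gene does not separate (chromosome 9, 59656368 to 59679375). Its sham libraries stood at 113, 56.0 and 92.8 CPM and its overloaded libraries at 141, 322 and 367 CPM. The lowest overloaded library lay close to the highest sham library, and the log2 fold change of 1.64 (edgeR adjusted p = 0.00186, SE 0.34) was 1.40 without overloaded library 3 and 1.98 without overloaded library 1. Ldha, whose subunit favours the making of lactate (chromosome 7, 46841475 to 46855627), was at 88.8, 60.1 and 65.9 CPM in sham and 247, 181 and 297 CPM in overload. With groups well apart, it rose from 71.6 ± 15.1 to 242 ± 58.5 CPM (edgeR adjusted p = 2.73e-06, log2 fold change 1.74, SE 0.25). Ldhb, the heart-type subunit, had 7 counts in sham and 4 in overload.

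**Figure D2:**
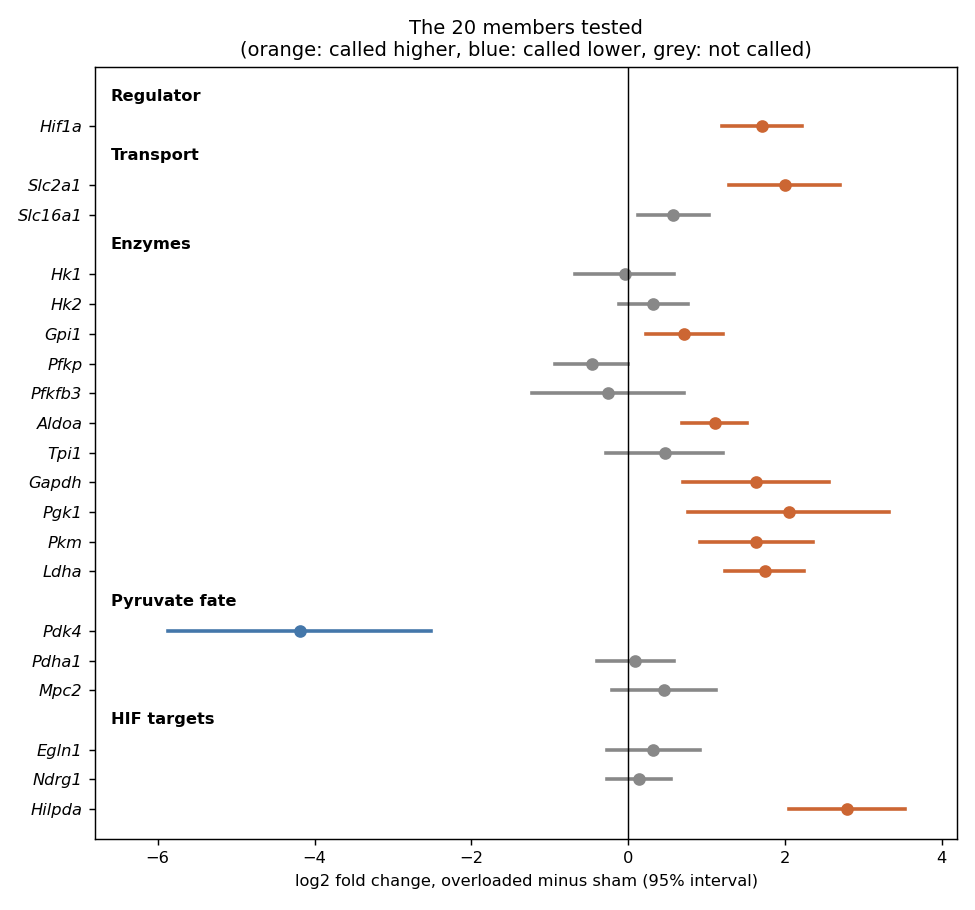
Log2 fold change (overloaded minus sham) with its 95% interval for the 20 members tested (orange called higher, blue called lower, grey not called), ordered by role and, for enzymes, by step. The intervals of Hk1, Hk2, Pfkp, Pfkfb3 and Tpi1 reach across 0, while those of Gpi1, Aldoa, Gapdh, Pgk1, Pkm and Ldha lie above it.

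Among the genes that steer pyruvate, Pdk4 fell. It encodes a pyruvate dehydrogenase kinase that is raised in fasting and by glucocorticoids (chromosome 6, 5483351 to 5496309). Sham libraries held 9, 10 and 12 of its counts and overloaded libraries 1, 1 and 0, or 16.6 ± 3.95 and 0.739 ± 0.656 CPM. The 31 counts against 2 gave a ratio of 21.8, sham over overloaded, with an exact 95% counting interval of 5.54 to 188 (edgeR adjusted p = 0.000238). Pdk1, the kinase of this family best known as a HIF target, had 13 counts in each group and was too low to test. In the deeper overloaded libraries these made 4.79 ± 1.01 CPM, against 6.95 ± 1.47 CPM in sham, and the groups overlapped. Pdha1, a subunit of pyruvate dehydrogenase itself (chromosome X, 160122209 to 160138413), was at 75.9, 114 and 121 CPM in sham and 109.7, 107 and 115 CPM in overload, with overlap and a log2 fold change of 0.09 (interval -0.40 to 0.58). Mpc2 of the mitochondrial pyruvate carrier was at 29.6 to 43.0 CPM in sham and 35.6 to 61.4 CPM in overload and was not called (log2 fold change 0.46, interval -0.20 to 1.12). Its partner Mpc1 had 1 count in sham and 2 in overload.

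Of the 7 HIF targets 3 could be tested, with 1 higher and 0 lower by edgeR, beside 15% higher and 14.3% lower of all tested genes. None was lower at an unadjusted p under 0.05 in edgeR or by DESeq2 or limma. Hilpda encodes a small lipid droplet protein that inhibits the lipase ATGL (chromosome 6, 29272488 to 29275446). It was at 22.9, 14.5 and 18.8 CPM in sham and at 84.6, 100.3 and 216 CPM in overloaded libraries. Overloaded library 3 was far above the other two, yet every overloaded library exceeded every sham library. The log2 fold change of 2.79 (edgeR adjusted p = 2.14e-06, SE 0.36) was 2.29 without overloaded library 3. Ndrg1, a stress-responsive gene that HIF-1 induces in many cell types (chromosome 15, 66929318 to 66969640), was at 377, 305 and 363 CPM in sham and 408, 341 and 401 CPM in overload. These overlap, and the log2 fold change of 0.14 had a 95% interval of -0.27 to 0.55 (edgeR adjusted p = 0.659). Egln1 encodes PHD2, the main prolyl hydroxylase that marks HIF-1 alpha, and was at 84.5, 47.7 and 59.2 CPM in sham and 83.7, 48.9 and 109 CPM in overload (interval -0.27 to 0.92). The other 4 were hardly seen. Egln3, which encodes PHD3, had 4 counts in sham and 7 in overload, the mitophagy gene Bnip3 had 2 and 1, and the carbonic anhydrase genes Car12 and Car9 had 4 and 5, and 0 and 1. In the counts of these 4 genes themselves no difference was detectable at this depth. For Bnip3 there were 5 near-identical genes, and only 1 of them had counts, 20 in sham and 7 in overload. Bnip3 and these copies together stood at 5.73, 18.7 and 12.1 CPM in sham and 3.85, 5.02 and 0 CPM in overload, which do not overlap and were not tested.

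Set side by side, enzymes and HIF targets had median log2 fold changes of 0.71 over 11 tested enzymes and 0.32 over 3 tested HIF targets. Gapdh and Pgk1, which passed the filter through the overloaded libraries alone, are part of the enzyme median, and over the other 9 tested enzymes it was 0.46. The difference between the classes was not tested, since members are not replicates. The 17 enzymes summed to 1088, 973 and 1223 CPM in sham and 1732, 1879 and 2187 CPM in overloaded libraries, with Aldoa giving 30.1% of the sum. The groups were apart, with means of 1095 ± 125 and 1933 ± 232 CPM. The 7 HIF targets summed to 493, 375 and 441 CPM in sham and 586, 495 and 726 CPM in overload, where Ndrg1 gave 70.4%. Without Ndrg1, the gene with most of the sum, the other 6 HIF targets stood at 116, 70.5 and 78.0 CPM in sham and 178, 154 and 325 CPM in overload, with no overlap and a ratio of means of 2.48. For the enzymes the ratio was 1.77 with Aldoa and 1.62 without it. Without Hilpda, the 1 target called, the HIF target sums were 469.6, 361 and 422 CPM in sham and 501, 395 and 510.1 CPM in overload and overlapped.

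**Figure D3:**
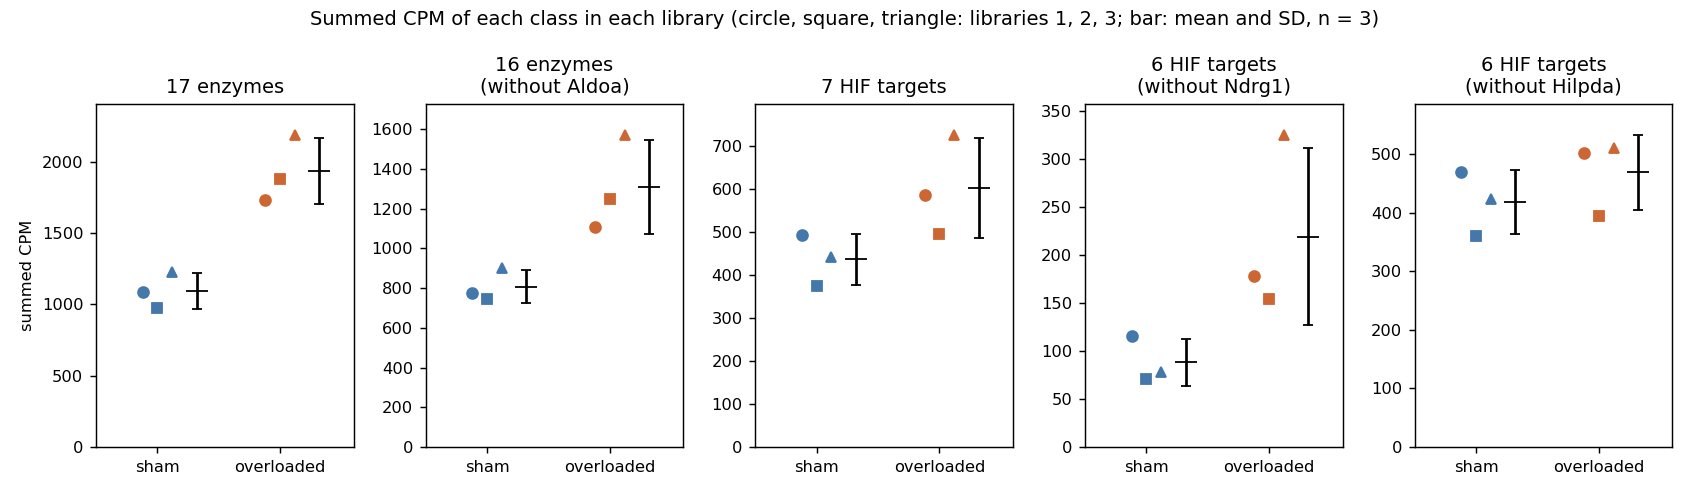
Summed CPM of the enzymes and of the HIF targets in each sham (blue) and overloaded (orange) library, with mean and SD of 3 libraries, and the same sums without the gene named. The enzyme sums do not overlap with or without Aldoa, nor do the HIF target sums with or without Ndrg1, while those without Hilpda overlap.

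Of 19 further HIF targets 15 could be tested, 5 were higher, 2 lower and 8 not called by edgeR, with a median log2 fold change of -0.11. DESeq2 and limma each called 4 higher and 2 lower, and over all genes edgeR called 15% higher and 14.3% lower. Adm, which encodes the vessel-dilating peptide adrenomedullin, was at 354, 334 and 422 CPM in sham and 165, 201 and 121 CPM in overload and fell by 1.19 on the log2 scale (SE 0.22, edgeR adjusted p = 0.000114). Fam162a, a mitochondrial protein gene, rose from 9.96 ± 3.40 to 35.7 ± 7.17 CPM, and Ero1a, an oxidase of the endoplasmic reticulum listed by its older name Ero1l, from 13.9 ± 4.13 to 44.3 ± 11.9 CPM. Their log2 fold changes were 1.78 (SE 0.42) and 1.64 (SE 0.39), each at an edgeR adjusted p of 0.00161. Bhlhe40, a transcriptional repressor, Vegfa, the vessel growth factor, and Ddit4, an inhibitor of mTORC1, were also higher, with log2 fold changes of 0.81, 0.69 and 1.21. The groups overlapped for Ddit4, at 18.6, 29.0 and 21.5 CPM in sham and 33.7, 26.3 and 98.3 CPM in overload (edgeR adjusted p = 0.0433). Mxi1, an antagonist of Myc, fell from 50.01 to 22.7 CPM. These 4 and Epas1 were singled out after their values were seen. Of 11 genes for other HIF subunits and for HIF regulators, 8 were tested and 0 called by edgeR. At an unadjusted p under 0.05 edgeR had 1 higher and 1 lower, DESeq2 called 0 and limma called 1 lower. The HIF-2 alpha gene Epas1 was at 84.5, 95.4 and 64.6 CPM in sham and 43.3, 74.0 and 28.9 CPM in overload (log2 fold change -0.74, edgeR adjusted p = 0.0662).

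In the pathways around glycolysis, 3 of 17 tested citric acid cycle genes rose and 0 fell by edgeR (2 rose and 0 fell by DESeq2 and by limma, and 0 fell at an unadjusted p under 0.05 in edgeR), with a median log2 fold change of 0.44. Of all tested genes 15% were called higher, so the share of this list was near the background. Mdh2, the mitochondrial malate dehydrogenase, rose from 203 ± 47.1 to 569.5 ± 139 CPM (edgeR adjusted p = 7.43e-06), and Cs, citrate synthase, from 72.8 ± 24.6 to 169.7 ± 29.2 CPM (edgeR adjusted p = 0.000599). Fh1, fumarate hydratase, rose from 14.8 ± 2.38 to 33.0 ± 14.9 CPM (edgeR adjusted p = 0.0332). In the pentose phosphate pathway 2 of 8 tested genes rose, Tkt from 53.8 ± 15.6 to 107 ± 10.9 CPM and Pgd from 17.96 ± 9.76 to 38.2 ± 6.70 CPM. Tkt encodes transketolase and Pgd phosphogluconate dehydrogenase, with edgeR adjusted p-values of 0.00408 and 0.0351, and DESeq2 called 1 gene of this pathway higher and limma 2. None of 7 tested genes of pyruvate dehydrogenase and its regulators was called by edgeR. At an unadjusted p under 0.05 edgeR had 1 higher, DESeq2 called 0 and limma 1. Of 23 other glycolytic genes and glucose transporters 6 were tested and Adpgk, a sugar kinase that uses ADP, rose from 11.5 ± 2.83 to 28.6 ± 2.32 CPM (edgeR adjusted p = 0.022). Limma also called 1 of these 6 genes higher and DESeq2 called 0. The tissue-specific forms Hk3, Aldoc, Pklr, Pgk2, Pgam2 and the insulin-responsive transporter gene Slc2a4 had 0 counts in all 6 libraries, which allows up to 0.649 CPM each over the libraries together.

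**Figure D4:**
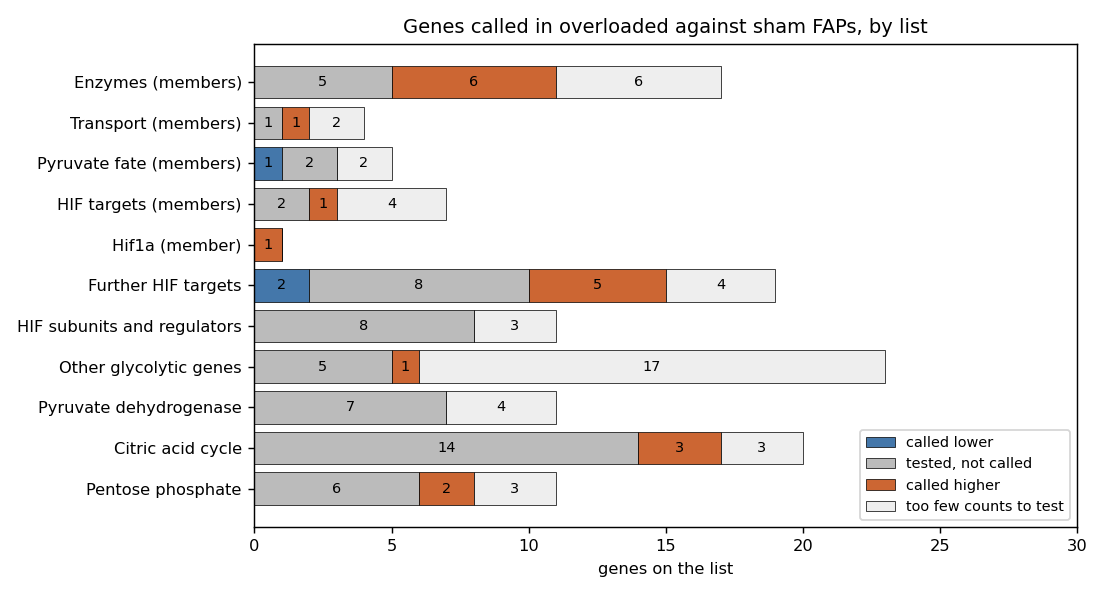
Number of genes called lower (blue), not called (grey), called higher (orange) or too low to test (pale) in overloaded against sham FAPs, for the member classes and for other genes of the pathways. Enzymes have 6 higher and 0 lower, and the further HIF targets have 5 higher and 2 lower.

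In all 15 alternative settings Hif1a, Slc2a1, Aldoa, Pkm, Ldha and Hilpda stayed called higher, 6 genes in all. With the share of olfactory and vomeronasal reads as a covariate, Gpi1, Gapdh and Pgk1 were not called (edgeR adjusted p = 0.155, 0.382 and 0.170), leaving 3 enzymes, while Pdk4 was still called. Their log2 fold changes with the covariate were 0.74, 0.93 and 1.77, against 0.71, 1.63 and 2.05 without it. After every library was thinned to 500402 counts, Pgk1 and Pdk4 were too low to test and the other 8 called members were still called.

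**Figure D5:**
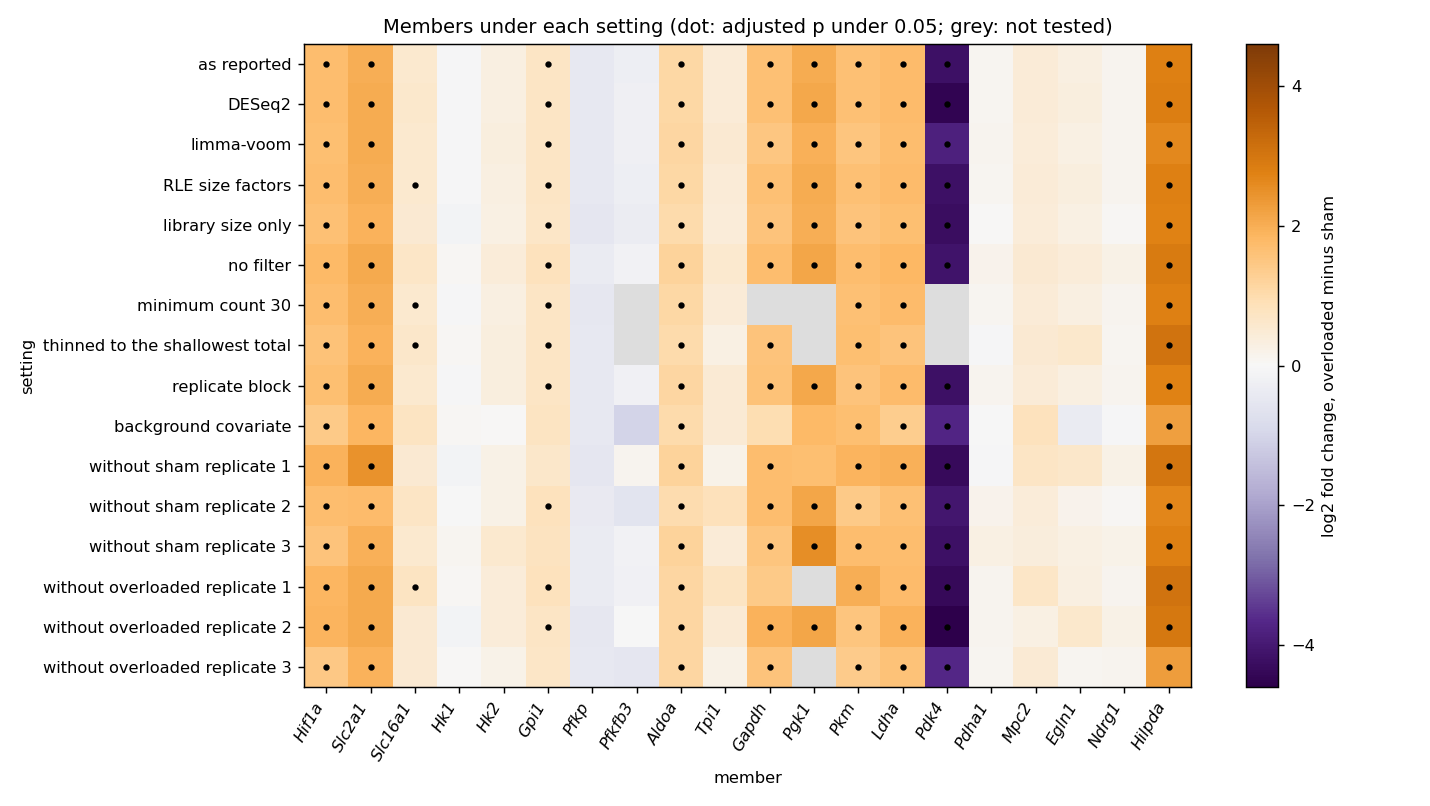
Log2 fold change (overloaded minus sham, colour) of the 20 tested members under the setting used here and 15 alternatives, with a dot where the adjusted p was under 0.05 and grey where a gene was not tested. The columns of Hif1a, Slc2a1, Aldoa, Pkm, Ldha and Hilpda have a dot in every setting, and Pdk4 is lower wherever it was tested.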

How the data were processed

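The deposited values are raw counts for each gene, whole numbers that the authors left without normalisation. The tools, per the submitters' processing notes, included DESeq2 1.28.1, featureCounts 2.0.1, HISAT2 2.2.1 and Trim Galore 0.6.6, named without an order, and the build was GRCm38. Not given in the sources used here are the annotation, the strand setting, the handling of reads with several positions and whether molecular identifiers were collapsed. The exact counting interval of the Pdk4 ratio and the floor for genes without counts therefore cover counting error only. The intervals of log2 fold changes come from edgeR's quasi-likelihood fit and also carry the variation between libraries.

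From these counts, edgeR 4.0.16 in R 4.3.3 was run here on all 6 libraries (filterByExpr, count minimum 10, total minimum 15, TMM, robust quasi-likelihood test, Benjamini-Hochberg adjustment over 7207 genes). The SE is the log2 fold change divided by the square root of F. The test was checked on simulated counts. DESeq2 1.42.0 and limma 3.58.1 were alternatives. Positions and exon overlaps came from GENCODE M21, which held all 34 members, and near-identical copies from BLAST 2.17.0. Exons of 15 members overlap those of another gene.

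Members described in full are Hif1a, each called member and each with a mean of 100.0 CPM or more, and up to 3 called genes of each further list are named. Members, lists and alternatives were chosen with earlier results of these data known.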

Additional observations from a re-analysis of the deposited data

How the results depend on the processing

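Over the 15 alternatives the enzyme median log2 fold change ran from 0.45 to 0.99 and that of the HIF targets from -0.06 to 0.62. The enzymes tested numbered from 8 at a minimum count of 30 to 17 with no filter, so these medians cover different genes. The highest enzyme median was without sham library 3, with 12 enzymes tested. In the setting used here, without Gapdh and Pgk1, the enzyme median was 0.46. Leaving out 1 library at a time gave 7 to 10 members higher and 1 lower, 4 to 7 enzymes and 1 HIF target higher, and over all genes 853 to 1073 higher and 742 to 960 lower. With the share of background reads as a covariate there were 488 higher and 381 lower genes, and 3 enzymes higher, while the enzyme median was 0.74 against 0.71 without it. With a minimum count of 30, or after thinning to 500402 counts a library, Pdk4 was too low to test and 0 members were lower. Members not called by edgeR changed sign as follows. Hk1 was at 0.037 with no filter, 0.050 after thinning, 0.070 with the covariate, and from -0.13 to 0.090 with a library left out. Pfkfb3 ran from -0.59 to 0.14 with a library left out, the latter without sham library 1. Pdha1 was at -0.048 after thinning, -0.025 with the covariate, and from -0.057 (without sham library 1) to 0.25 with a library left out. With the covariate Egln1 was at -0.37 and Ndrg1 at -0.058. The cause of these changes was not tested. The replicate block, with the shared replicate numbers as pairs, left 9 members higher and 1 lower, and changed no call among members. Deviations of same-numbered libraries correlated at 0.0082, 0.014 and 0.015, and those of differently numbered libraries at -0.025 to 0.011. Such values cannot show whether the numbers pair the libraries, and the labels do not say. With 1 count worth up to 2.07 CPM, 14 members were too low to test.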
